A study of Mus musculus with 4 samples.

Results

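All cells of the thoracic aorta from Sting knockout mice given angiotensin II were compared with all cells of the thoracic aorta from wild-type mice given the same treatment. The comparison held 17002 of the 38316 cells of the study: 8507 in the library labelled Sting-KO (KO AngII) and 8495 in the wild-type library (WT AngII). Both groups had eaten a high fat diet for 5 weeks and had been infused with angiotensin II (AngII), a peptide hormone that constricts arteries, for 7 days. Diet and infusion therefore cannot be told apart, and "AngII" stands for the pair of them. The remaining libraries were wild type and knockout on normal diet with saline (WT saline, KO saline), and their ratio is set beside the AngII ratio where the comparisons differ. The knockout is a whole-body one. The sources used here do not state the strain, age or sex of the mice or which part of the gene was altered.

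Each group was 1 library of cells pooled from 3 mice, so no difference between libraries has a replicate check and no test between groups was possible. Transcripts were captured at their 3′ end in droplets and counted by unique molecular identifiers (UMIs), so that each captured molecule is counted once. WT AngII held 90581097 UMIs and KO AngII 94698727, with medians of 9938 and 9294 UMIs per cell. The median mitochondrial share was 5.34% in WT AngII and 4.58% in KO AngII. The libraries shared 94 cell barcodes (1.11% of the smaller library), none with identical counts.

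STING, encoded by Tmem173, is an adaptor protein of the endoplasmic reticulum that is activated by cyclic dinucleotides made when DNA appears in the cytosol. Activated STING recruits the kinase TBK1, which phosphorylates the transcription factor IRF3 and leads to type I interferon production, and it also activates NF-kB. Secreted interferon acts on its receptor to switch on interferon-stimulated genes, whose products restrict viruses, load antigen on MHC molecules and amplify the pathway itself.

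Cells were assigned to gates by the UMIs of marker genes. The smooth muscle (SMC) gate took cells with at least 3 UMIs of Myh11, the smooth muscle myosin heavy chain. The fibroblast gate took cells with at least 10 UMIs of the matrix proteoglycans Dcn and Lum together and at most 1 of Myh11. The phagocyte gate took cells with at least 10 UMIs of Lyz2, C1qa and C1qb together (lysozyme and complement C1q, markers of macrophages and monocytes) and under 10 of Dcn and Lum.

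The SMC gate held 5906 of the WT AngII cells (69.5%, 95% exact binomial interval 68.5 to 70.5) and 5668 of the KO AngII cells (66.6%, 65.6 to 67.6). The fibroblast gate held 1698 cells (interval 19.1 to 20.9%) and 1880 cells (22.1%, 21.2 to 23%). The phagocyte gate held 705 cells (8.30%, 7.72 to 8.91) and 561 cells (6.59%, 6.08 to 7.14). The intervals of each pair did not overlap, but they cover counting error only. The order of the fibroblast shares turned with the gate limits: it was 14.5% in WT AngII and 13.6% in KO AngII with stricter limits, and 18.5% and 13.7% when every cell was first thinned to 3000 UMIs. The phagocyte share stayed lower in KO AngII under the 4 gate and cell filter settings tried, among them 7.30% and 5.63% when cells in 2 gates were counted in none.

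**Figure D1:**
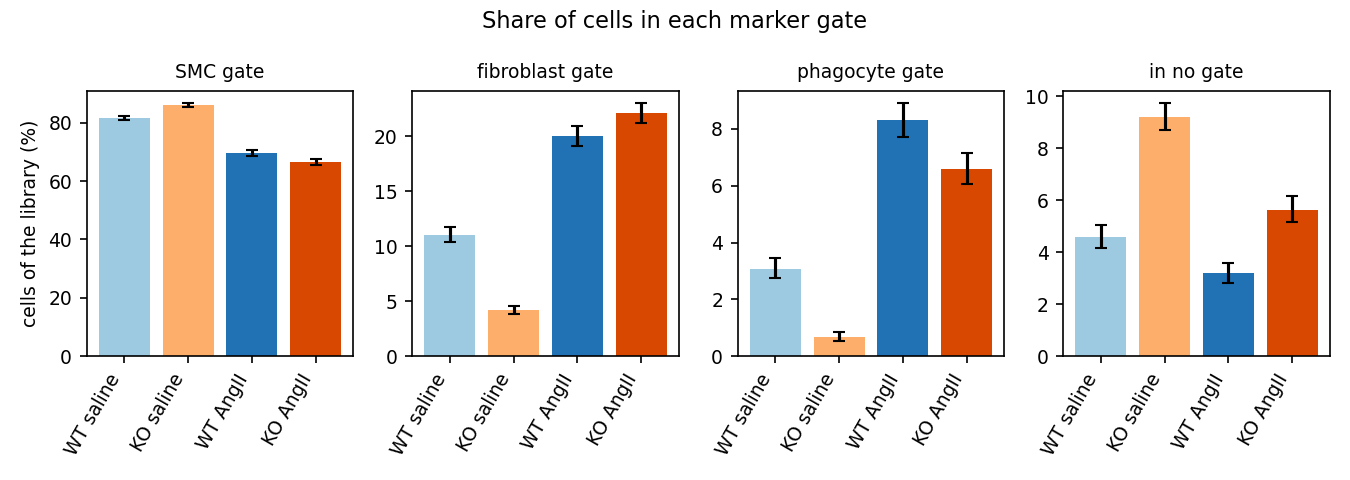
Share of the cells of each library (y axis, percent) in the 3 marker gates and in no gate, for the 4 libraries; bars are the measured shares and whiskers their 95% exact binomial intervals, which cover counting error only. In the AngII pair the phagocyte share was 8.30% in WT and 6.59% in KO.

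Summed markers were highest in their own gate, though the genes that define the gates are among them. All 7 smooth muscle, 8 fibroblast and 8 phagocyte markers listed were at 10 CPM (UMIs per 1000000 UMIs of the gate) or more in their own gate in both libraries. That limit does not tell the gates apart, since all 7 smooth muscle markers reached it in the other gates too. In WT AngII smooth muscle markers summed to 36623 CPM in the SMC gate and 1305 CPM in the fibroblast gate. Fibroblast markers summed to 22335 CPM in their own gate and 1955 CPM in the SMC gate. Phagocyte markers summed to 23397 CPM in their own gate and 293 CPM in the fibroblast gate. Cells that fell in both the SMC and the phagocyte gate numbered 85 in WT AngII and 82 in KO AngII, and they supplied 19.8% and 22% of the UMIs of the phagocyte gate. Smooth muscle markers summed to 5646 CPM there in WT AngII and 6259 CPM in KO AngII, so phagocyte values are also given without those cells. No doublet caller was applied. T cell markers were near 0 in the phagocyte gate, with a sum of 2.8 CPM in WT AngII and 2.47 CPM in KO AngII over the 4 listed markers that the files hold, while NK cell markers (3 held) summed to 13.2 CPM and 1.65 CPM. Cells in no gate made up 3.19% of WT AngII and 5.64% of KO AngII; of these, 91 and 256 had at least 50 UMIs of the smooth muscle actin Acta2.

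Tmem173 (chromosome 18, 35733679 to 35740554, minus strand, GRCm38) was examined first. It had 637 UMIs in WT AngII and 578 in KO AngII, or 7.03 CPM (95% exact Poisson interval 6.5 to 7.6) and 6.1 CPM (5.62 to 6.62). In the phagocyte gate its level was 38.7 CPM in WT AngII and 29.5 CPM in KO AngII, in the fibroblast gate 15.9 CPM and 12.5 CPM, and in the SMC gate 1.47 CPM and 1.59 CPM. Transcripts of the gene were thus counted at similar levels in both libraries, with a log2 ratio of KO AngII over WT AngII of -0.20 (95% counting interval -0.37 to -0.04). A 3′ tag that lies outside an altered region checks nothing, and "KO" in what follows names a library by its label.

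Genes were compared where they had a mean of at least 10 CPM in a gate and at least 0.1 of their highest gate mean. A gene was counted as apart when its CPM differed at least 1.5-fold. Of the 3 gates the SMC gate had the fewest genes apart, but it was also the deepest. In WT AngII it held 64695249 UMIs, the fibroblast gate 17897085 and the phagocyte gate 6431341. The gates were not compared at equal depth. Over all cells 229 of 7428 genes (3.08%) were higher in KO AngII and 242 (3.26%) were lower. In the SMC gate 173 of 7020 genes (2.46%) were higher in KO AngII and 103 (1.47%) were lower. In the fibroblast gate 399 of 7236 genes (5.51%) were higher and 622 (8.60%) lower, and in the phagocyte gate 219 of 7164 (3.06%) were higher and 329 (4.59%) lower. The median log2 ratio over all genes was -0.02 in the SMC gate, -0.01 in the fibroblast gate and 0.03 in the phagocyte gate. The fibroblast count of lower genes was 377 when gates were set on thinned cells.

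Interferon-stimulated genes were lower in KO AngII in fibroblasts and phagocytes. In the fibroblast gate 17 of the 32 listed genes were abundant enough to be compared and 15 of them were at least 1.5-fold lower, against 8.60% of all genes, with a median log2 ratio of -2.75. In the phagocyte gate 21 were compared and 19 were lower, against 4.59% of all genes, with a median of -1.27. No compared member of the list was at least 1.5-fold higher in either gate. Ifitm1, which was not on the list, was higher in the phagocyte gate, at 4.82 CPM in WT AngII and 16.3 CPM in KO AngII (1.76, 1.14 to 2.41). In KO AngII 10 cells held 79.7% of its UMIs. The SMC gate had only 3 listed genes at a comparable level, of which Lgals3bp (-1.54) and Bst2 (-0.75) were lower and Ifitm3 (-0.02) was not. Isg15 and Ifit3 were under the limits for a comparison in that gate but were lower in KO AngII there too. Isg15 had 10.1 CPM in WT AngII and 3.56 CPM in KO AngII (-1.51, -1.74 to -1.28). Ifit3 had 5.9 CPM and 1.1 CPM (-2.42, -2.82 to -2.04). Both were picked from the genes with the lowest fibroblast ratios.

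The transcription factor complex that interferon activates recognises an element found near the start of many interferon-stimulated genes. The letters GAAA, NN (any bases) and GAAA in a row were searched on both strands of RefSeq promoter windows (250 bases before to 50 after the start, GRCm38.p6), where a match on the other strand reads TTTC, NN and TTTC. The motif was in 13 of the 24 interferon-stimulated genes with a window (54.2%), in 10 of the 11 interferon-induced GTPases (90.9%), in 4 of the 13 MHC class I genes (30.8%) and in 0 of 12 cholesterol synthesis genes, against 3.99% of 27025 genes with a window. A match describes the letters and does not show binding. The 120-base stretches below are shown for 4 genes whose levels differed strongly, in the direction of transcription and with the motif in capitals; overlapping matches run together.
Ifit3 (chr19:34583352-34583471, plus strand): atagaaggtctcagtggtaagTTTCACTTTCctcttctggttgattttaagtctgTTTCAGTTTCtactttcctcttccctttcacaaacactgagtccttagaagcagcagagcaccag
Isg15 (chr4:156200820-156200939, minus strand): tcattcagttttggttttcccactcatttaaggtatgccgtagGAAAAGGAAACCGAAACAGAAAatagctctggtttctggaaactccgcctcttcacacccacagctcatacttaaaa
Ifit1 (chr19:34640749-34640868, plus strand): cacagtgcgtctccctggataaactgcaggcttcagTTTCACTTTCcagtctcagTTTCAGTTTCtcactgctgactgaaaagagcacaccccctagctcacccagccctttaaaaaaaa
Bst2 (chr8:71537532-71537651, minus strand): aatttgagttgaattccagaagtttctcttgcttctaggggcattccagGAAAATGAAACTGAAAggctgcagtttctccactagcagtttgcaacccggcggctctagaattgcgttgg

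Classical antiviral effectors were lower in KO AngII fibroblasts. Isg15, a ubiquitin-like protein that is conjugated to other proteins during the interferon response, had 139 CPM in WT AngII and 8.85 CPM in KO AngII, a log2 ratio of -3.98 (-4.18 to -3.78). Its saline levels were 34.8 CPM in WT and 35.6 CPM in KO, so that WT AngII stood above and KO AngII below a shared saline level. In the thinned cells described below, Isg15 was detected in 16.4% of WT AngII fibroblasts (14.6 to 18.2) and 2.02% of KO AngII fibroblasts (1.43 to 2.76), against 1.54% and 1.02% of SMC-gate cells. Usp18, which removes ISG15 from its targets, had 20.2 CPM and 1.14 CPM (-4.15, -4.76 to -3.59).

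The Ifit proteins bind viral RNA. Ifit3 had 62.5 CPM in WT AngII and 3.65 CPM in KO AngII (-4.10, -4.42 to -3.79), and Ifit1 had 79.5 CPM and 6.33 CPM (-3.65, -3.90 to -3.41). In saline Ifit3 was 71 CPM in WT and 21.8 CPM in KO, so WT AngII was near its saline level and the saline pair also differed. Ifit3b (-4.38) is a near-identical copy of Ifit3 whose promoter window holds the same 120 bases, and reads may have been split between them. Bst2, a membrane protein that tethers budding virus, had 400.1 CPM and 59.5 CPM (-2.75, -2.83 to -2.67), and Ifi27l2a, among the most abundant members, had 1181 CPM and 208 CPM (-2.50, -2.55 to -2.46). Cxcl10, a chemokine for activated T cells, differed less, at 43.7 CPM and 25.7 CPM (-0.77, -0.92 to -0.61), and Isg20 (-0.05) and Ifitm3 (-0.52) were within 1.5-fold.

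Cxcl9, an interferon-gamma-induced chemokine, showed the lowest ratio of the list, with 421 UMIs in WT AngII and 22 in KO AngII (-4.72, -5.41 to -4.10). Its counts were concentrated: the 10 cells with most UMIs held 62.2% of them in WT AngII. Isg15 was more widely spread, with 24.5% of its WT AngII UMIs in 10 cells. The named gene with the lowest ratio of all, Otor, had 393 UMIs in WT AngII and 1 in KO AngII, but the WT AngII UMIs came from 4 cells. Such UMIs describe those cells and not the gate.

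The difference was present across the fibroblast gate and not only in its brightest cells. After each cell was thinned to 3000 UMIs, the summed UMIs of the 29 list genes in the files other than Ifitm3 had a median of 3 per cell in WT AngII and 0 in KO AngII. Fibroblasts without a single list UMI made up 13.3% of WT AngII and 51.9% of KO AngII, and those with at least 10 made up 21.4% and 1.54%. Without the top 5% of cells the means were 5.01 and 0.788 UMIs per cell. In the saline libraries the means over all cells were 4.34 in WT and 2.52 in KO, so KO AngII had the lowest mean of the 4 libraries (1.23) and WT AngII the highest (6.84). The SMC gate means were 0.587 in WT AngII and 0.368 in KO AngII.

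**Figure D2:**
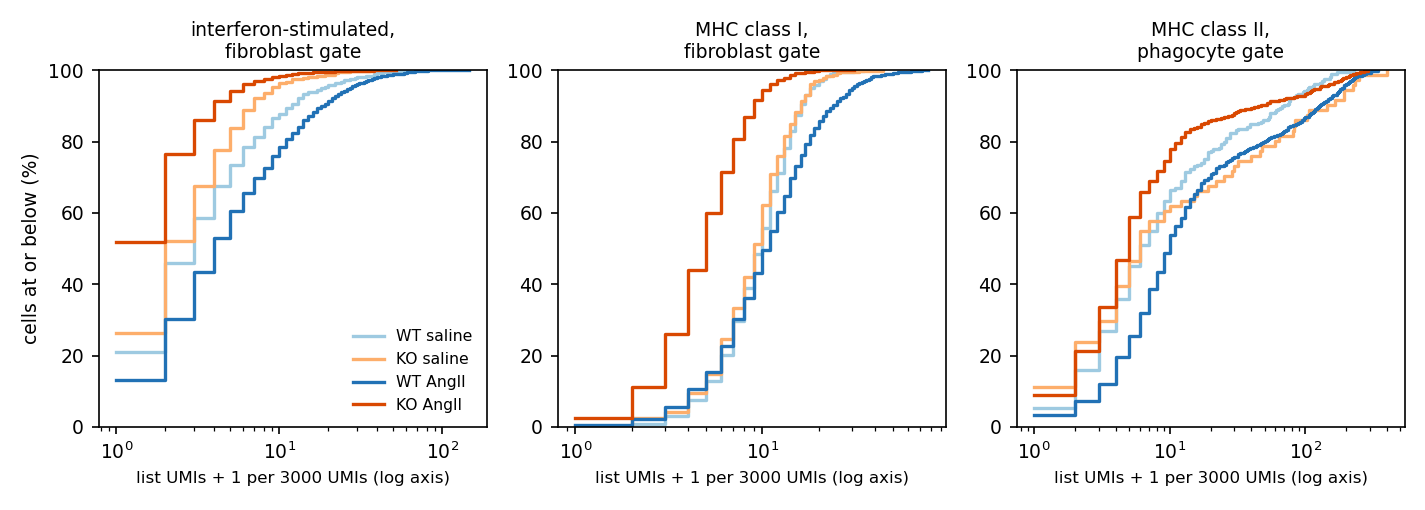
Cumulative share of cells (y axis, percent) against the summed UMIs of a gene list per cell plus 1 after thinning to 3000 UMIs (x axis, log scale), for interferon-stimulated and MHC class I genes in the fibroblast gate and MHC class II genes in the phagocyte gate; each line is 1 library. In the left panel KO AngII starts highest, with 51.9% of cells at 0 list UMIs against 13.3% in WT AngII.

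Phagocytes of KO AngII also had lower levels of these genes. Ifit3 had 42.8 CPM in WT AngII and 6.39 CPM in KO AngII (-2.74, -3.33 to -2.20), Oasl2, a member of the oligoadenylate synthetase-like family, had 63.9 CPM and 11.8 CPM (-2.44, -2.87 to -2.04), and Isg15 had 101 CPM and 25.2 CPM (-2.01, -2.30 to -1.73). Ifi27l2a (-0.26) and Slfn2 (-0.09) were within 1.5-fold. Without the cells that were also in the SMC gate, 19 of 23 members were lower with a median of -1.27. Per thinned cell the list had a mean of 18.4 UMIs in WT AngII, 12.5 in KO AngII, 18.2 in WT saline and 7.2 in KO saline. In saline 14 of 20 members were lower in KO phagocytes with a median of -0.88, against 15.1% of all genes, where the KO library held only 83 phagocyte-gate cells. In saline fibroblasts 8 of 16 members were lower, against 7.21% of all genes, with a median of -0.57.

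The transcription factors that drive these genes were lower as well. Irf7, the interferon-inducible factor that amplifies type I interferon production (chromosome 7, 141262706 to 141266481, minus strand, GRCm38), had 65.9 CPM in WT AngII and 3.45 CPM in KO AngII in the fibroblast gate (-4.26, -4.59 to -3.94). In the phagocyte gate it had 128 CPM and 10.3 CPM (-3.64, -4.08 to -3.22). Its saline levels were close between genotypes, at 25.3 CPM in WT and 18.2 CPM in KO in fibroblasts and 41.9 CPM and 35.4 CPM in phagocytes. After thinning, Irf7 was detected in 12.1% of WT AngII fibroblasts (10.6 to 13.8) and 1.12% of KO AngII fibroblasts (0.693 to 1.70), and in 22.7% (19.7 to 26) and 2.50% (1.37 to 4.15) of phagocytes. The unthinned shares were 22.5% and 3.09% in fibroblasts and 41.0% and 4.99% in phagocytes. The SMC gate gave 1.20% and 0.335% after thinning.

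Irf9, the DNA-binding subunit of the interferon-activated complex, was lower by smaller amounts. It had 19.9 CPM in WT AngII and 6.94 CPM in KO AngII in fibroblasts (-1.52, -1.79 to -1.25) and 28.9 CPM and 13 CPM in phagocytes (-1.15, -1.59 to -0.74). The RNA sensor genes Ddx58, which encodes RIG-I, and, in phagocytes, Ifih1, which encodes MDA5, were at -1.12 (Ddx58, fibroblasts), -1.26 (Ddx58, phagocytes) and -0.77 (Ifih1). Irf1, which interferon-gamma induces, was within 1.5-fold in fibroblasts (-0.04) and phagocytes (-0.23) and was higher in KO AngII in the SMC gate (0.88, 0.79 to 0.97). Of the whole list 5 of 6 compared members were lower in fibroblasts (8.60% of all genes) and 8 of 9 in phagocytes (4.59%).

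The interferon-induced GTPases, which attack membranes around intracellular pathogens, were lower without exception among those compared. All 4 in fibroblasts and all 7 in phagocytes were at least 1.5-fold lower in KO AngII, with medians of -2.25 and -1.65, against 8.60% and 4.59% of all genes. Iigp1 had 33.9 CPM in WT AngII and 1.7 CPM in KO AngII in fibroblasts (-4.31, -4.80 to -3.86). Gbp2 had 54.9 CPM and 10.3 CPM in phagocytes (-2.41, -2.87 to -1.98). In saline phagocytes the Gbp2 levels were 5.24 CPM in WT and 6.25 CPM in KO, so the WT AngII library alone stood high.

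Upstream of these genes the differences were small or mixed. Ifnb1, the gene of interferon beta, had 0 UMIs in the fibroblast gate of both AngII libraries and, in the phagocyte gate, 0 in WT AngII and 5 in KO AngII. The receptor genes Ifnar1 (-0.08 in fibroblasts, -0.15 in phagocytes) and Ifnar2 (-0.18 and -0.33) and the receptor kinase Jak1 (-0.33 and 0.06) were within 1.5-fold. Irf3 was at -0.30 and -0.27, and Tbk1 at -0.24 in phagocytes. Of the STING pathway list, 3 of 9 compared members were lower in fibroblasts (8.60% of all genes) and 1 was higher (5.51%): Zbp1 (-2.29), a nucleic acid sensor, Ifi204 (-1.88), a DNA sensor, and Trim56 (-0.67) were lower, and Nfkb1 (0.83) was higher. Zbp1 was also lower in KO phagocytes with both treatments, at -2.31 with AngII (55.2 CPM and 11.1 CPM) and -2.03 in saline (25.6 CPM and 6.25 CPM, the latter from 3 UMIs).

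**Figure D3:**
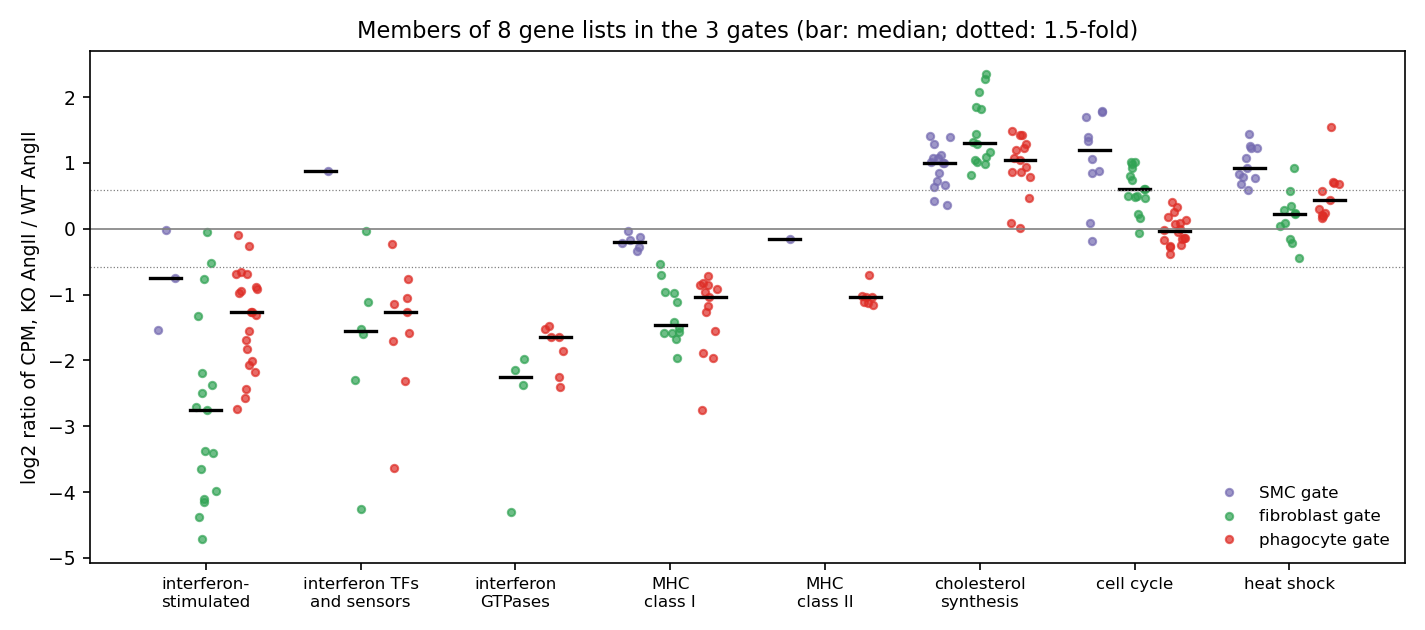
Log2 ratio of CPM in KO AngII over WT AngII (y axis) for the compared members of 8 gene lists in the SMC, fibroblast and phagocyte gates; each point is 1 gene, black bars are list medians and dotted lines mark 1.5-fold. Interferon and MHC lists lie below 0 in the fibroblast and phagocyte gates (medians of interferon-stimulated genes -2.75 and -1.27) and cholesterol synthesis genes above 0 in all 3 gates (medians 1.0, 1.30 and 1.05).

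Transcripts of genes for antigen presentation on MHC class I molecules were lower in fibroblasts and phagocytes and within 1.5-fold in smooth muscle. In fibroblasts 11 of 12 compared members were lower, against 8.60% of all genes, with a median of -1.46. In phagocytes all 13 were lower, against 4.59%, with a median of -1.04. All 6 members compared in the SMC gate were within 1.5-fold, with a median of -0.20. In saline the fibroblast and phagocyte medians were 0.08 and 0.15, and no member was at least 1.5-fold lower in KO in either gate.

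B2m, the invariant light chain, had 2221 CPM in WT AngII and 739.5 CPM in KO AngII in fibroblasts (-1.59, -1.61 to -1.56). The heavy chain H2-K1 had 340.0 CPM and 119 CPM there (-1.51, -1.58 to -1.45), and H2-D1 had 777 CPM and 244 CPM (-1.67, -1.71 to -1.63). Saline fibroblasts had 669 CPM of H2-D1 in WT and 703 CPM in KO, so KO AngII stood apart from the other three libraries, while H2-K1 was above its saline levels (215 CPM and 228 CPM) in WT AngII and below them in KO AngII. The peptide transporter Tap1 (-1.57) and the immunoproteasome subunits Psmb9 (-1.96) and Psmb8 (-1.41) had similar ratios. Psmb10 (-0.54), a further immunoproteasome subunit, was within 1.5-fold.

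Among phagocytes the class Ib gene H2-Q7 had the lowest ratio, with 79.3 CPM in WT AngII and 11.8 CPM in KO AngII (-2.75, -3.18 to -2.36). H2 genes form a family with similar sequences, and reads may have been split between them. H2-K1 had 969 CPM and 402 CPM (-1.27, -1.34 to -1.19). Per thinned cell the MHC class I list had a mean of 29.2 UMIs in WT AngII and 14 in KO AngII phagocytes, and 11.9 and 4.44 in fibroblasts. Cells with fewer than 10 such UMIs were therefore the majority of KO AngII fibroblasts: only 5.53% had 10 or more, against 50.4% in WT AngII.

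MHC class II genes, which present extracellular antigen and mark activated macrophages and dendritic cells, were lower in KO AngII phagocytes. All 7 compared members were at least 1.5-fold lower, against 4.59% of all genes, with a median of -1.04 (-1.01 without the cells in 2 gates). The summed level of dendritic cell markers in the gate was higher in KO AngII: the 6 listed summed to 16.8 CPM in WT AngII, with 0 of them at 10 CPM or more, and to 41.4 CPM in KO AngII, with 2, while Xcr1 and Clec9a had no UMI there. Their part in the class II values was not tested. Cd74, the invariant chain, had 4825 CPM in WT AngII and 2366 CPM in KO AngII (-1.03, -1.06 to -1.0), and H2-Ab1 had 1634 CPM and 745 CPM (-1.13, -1.19 to -1.08). H2-Ab1 was detected in 41.0% (37.3 to 44.7) of thinned WT AngII phagocytes and in 18.7% (15.6 to 22.2) in KO AngII, or 52.6% and 24.1% before thinning. In SMC-gate cells, with median depths of 10292 and 8718 UMIs against 7905 and 7589 in phagocytes, the thinned shares were 1.68% and 0.865%.

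The saline pair went the other way. H2-Ab1 had 653 CPM in WT saline and 2018 CPM in KO saline, and 6 of 7 members were at least 1.5-fold higher in KO saline, against 11.3% of all genes, with a median of 1.45. Only 83 cells made up the KO saline gate. MHC class II UMIs were also unevenly spread over cells: the top 5% of KO AngII phagocytes held 51.8% of them and the top 5% in WT AngII 32.8%. The medians per thinned cell were 9 in WT AngII and 4 in KO AngII.

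**Figure D4:**
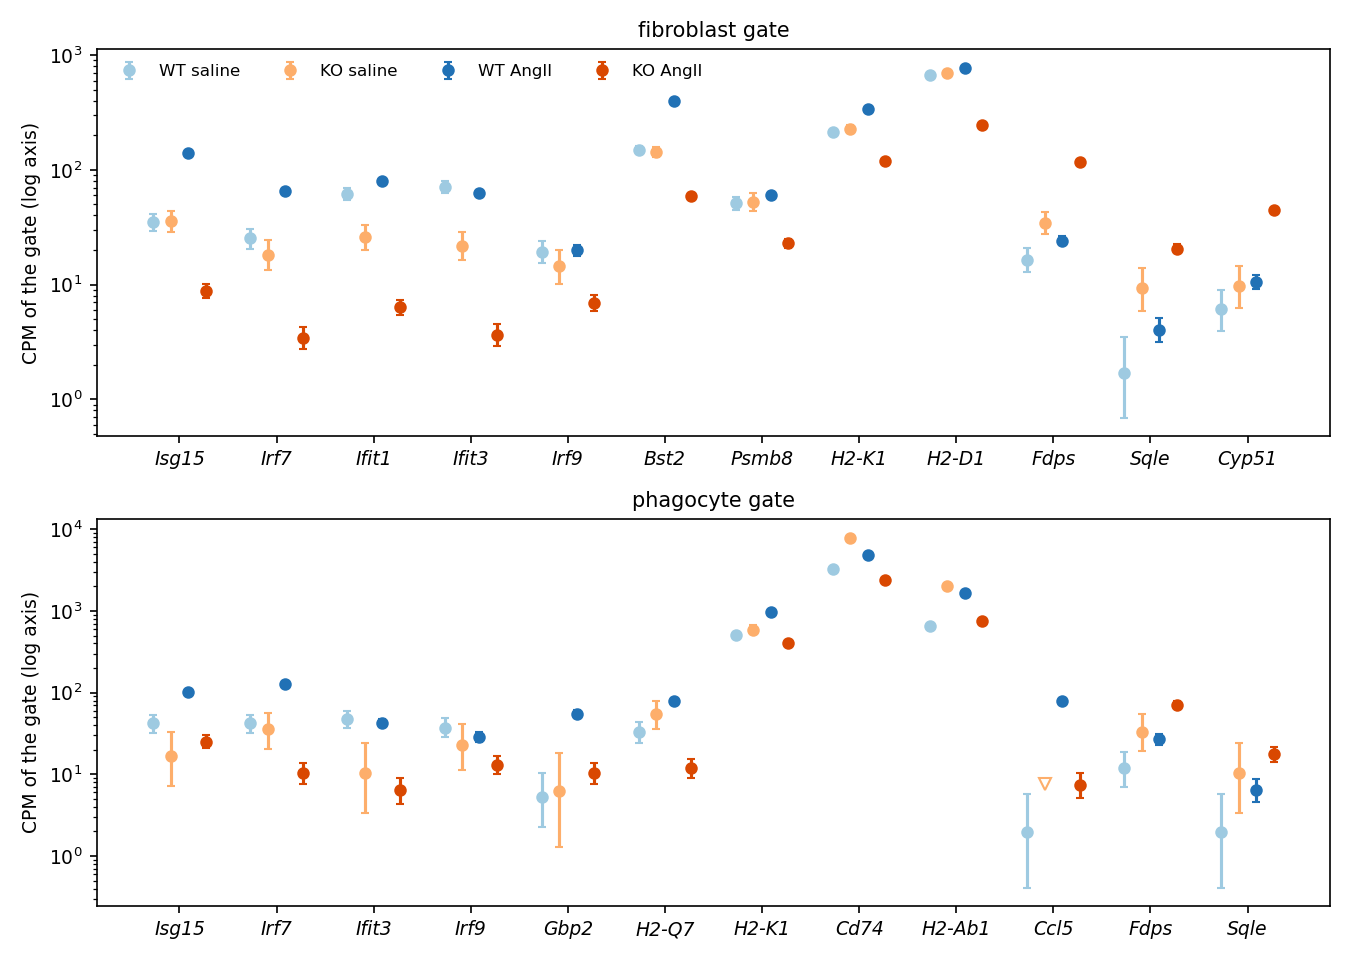
CPM of 12 genes in the fibroblast gate and 12 in the phagocyte gate (y axis, log scale) in the 4 libraries; points are library values, whiskers 95% exact Poisson intervals, and an open triangle marks the upper limit of a gene with 0 UMIs. Isg15 in fibroblasts was highest in WT AngII (139 CPM) and lowest in KO AngII (8.85 CPM), whereas Sqle was highest in KO AngII (20.5 CPM).

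Genes of recruited monocytes were partly lower in the phagocyte gate, while most genes of resident macrophages were within 1.5-fold. Ms4a4c had 49.1 CPM in WT AngII and 5.36 CPM in KO AngII (-3.20, -3.83 to -2.62), Plac8 had 50.2 CPM and 12.6 CPM (-2.0, -2.42 to -1.60), and Ccr2, the receptor that brings monocytes out of the marrow, had 122 CPM and 56.5 CPM (-1.12, -1.32 to -0.92). Fn1 (0.12), Vcan (0.20) and Thbs1 (0.28) of the same list were not apart. Of the 6 compared members 3 were lower, against 4.59% of all genes, with a median of -0.50, and 4 of 6 without the cells in 2 gates, with a median of -1.02. Of 13 resident macrophage genes Lyve1 was higher (213 CPM and 335 CPM, 0.65) and Retnla lower (379.7 CPM and 187 CPM, -1.03), though 10 cells held 96.1% of its WT AngII UMIs. For Plac8 that share was 64.1%. With 1 library a side, a changed mix of phagocytes and changed levels per phagocyte cannot be told apart.

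Other immune genes of phagocytes differed in both directions. Ccl5, a T cell chemokine, had 79.6 CPM in WT AngII and 7.42 CPM in KO AngII (-3.42, -3.95 to -2.93), with 63.7% of the WT AngII UMIs in 10 cells. AW112010 had 165 CPM and 12.6 CPM (-3.71, -4.11 to -3.34), whereas in saline it had 17.7 CPM in WT and 37.5 CPM in KO. The cytokine gene Il1b had 520.3 CPM and 281 CPM (-0.89, -0.98 to -0.80). Cxcl1, a neutrophil chemokine, was higher, with 309 CPM and 625 CPM (1.01, 0.93 to 1.10), as was Tnf, with 126 CPM and 210.5 CPM (0.74, 0.61 to 0.88).

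Spp1, the secreted phosphoprotein osteopontin, had 1195 CPM in WT AngII and 496 CPM in KO AngII phagocytes (-1.27, -1.34 to -1.20), and Apoe, the apolipoprotein that macrophages secrete, had 18312 CPM and 9958 CPM (-0.88, -0.89 to -0.86). Fabp5, a fatty acid carrier, was higher, with 124 CPM and 325 CPM (1.38, 1.26 to 1.51), although 10 cells held 56% of its KO AngII UMIs. Rgs5 (2.74) and Des (2.08) had the highest ratios of the named genes in this gate. Both are muscle or pericyte transcripts, and 10 cells held 52% and 73.1% of their KO AngII UMIs. Without the cells that were also in the SMC gate the ratios were 2.52 for Rgs5 and 2.98 for Des. Pericyte markers in the whole gate, Rgs5 among them, summed to 85.4 CPM in WT AngII and 248 CPM in KO AngII. Nearly all of that rise was Rgs5 itself, at 27.8 CPM and 186 CPM.

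A second group of genes was higher in KO AngII in all 3 gates: the enzymes of cholesterol synthesis. Cells switch these genes on together through the transcription factor SREBP2 when membrane sterol is low. In the SMC gate 13 of 15 compared members were at least 1.5-fold higher, against 2.46% of all genes, with a median of 1.0. In the fibroblast gate all 14 were higher (5.51% of all genes, median 1.30), and in the phagocyte gate 12 of 15 (3.06% of all genes, median 1.05; 10 of 13 and 1.09 without cells in 2 gates). No member was at least 1.5-fold lower in any gate.

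Fdps, which makes farnesyl diphosphate (chromosome 3, 89093588 to 89101959, minus strand, GRCm38), had 68.6 CPM in WT AngII and 179.7 CPM in KO AngII in the SMC gate (1.39, 1.34 to 1.44). In fibroblasts it had 24.1 CPM and 116 CPM (2.27, 2.12 to 2.42) and in phagocytes 26.7 CPM and 71.5 CPM (1.42, 1.15 to 1.69). Sqle, the squalene epoxidase, had 4.02 CPM and 20.5 CPM in fibroblasts (2.35, 1.99 to 2.73). After thinning, Sqle was detected in 0.942% of WT AngII fibroblasts (0.540 to 1.53) and 6.38% of KO AngII fibroblasts (5.32 to 7.58), or 3.36% and 19.0% before thinning.

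Cyp51, which removes a methyl group from lanosterol, was at 1.41 in the SMC gate and 2.07 in fibroblasts. The sterol motif TCACNCCAC, searched on both strands of the promoter windows, was in 1 of the 12 list genes with a window (Hmgcs1), against 1.44% of genes with a window. Dhcr7 (0.01) and Mvk (0.08) in phagocytes and Srebf2 (0.36), the gene of SREBP2 itself, in the SMC gate were within 1.5-fold. The saline pair leaned the same way, with 7 of 15 members higher in KO in the SMC gate (3.43% of all genes, median 0.57) and 11 of 14 in fibroblasts (11.0% of all genes, median 1.06). In the fibroblast gate the highest level of Fdps and Sqle among the 4 libraries was that of KO AngII (116 and 20.5 CPM).

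Fibroblasts also differed in signals they send. Cxcl1 had 673 CPM in WT AngII and 1347 CPM in KO AngII (1.0, 0.97 to 1.03), the monocyte chemokines Ccl2 had 637 CPM and 1114 CPM (0.81, 0.77 to 0.84) and Ccl7 639.5 CPM and 1579 CPM (1.30, 1.27 to 1.33). Lif, an IL-6 family cytokine, had 16.6 CPM and 86.5 CPM (2.38, 2.21 to 2.56) and was detected in 3.53% (2.71 to 4.53) and 15.3% (13.7 to 17.0) of thinned fibroblasts. Its saline levels were 1.22 CPM in WT and 6.87 CPM in KO.

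Of 10 compared chemokines 5 were higher in KO AngII, against 5.51% of all genes, and Cxcl12 (-0.77), which retains leukocytes and progenitors, was the single lower one. Of 12 compared cytokine and NF-kB feedback genes 7 were higher, against the same 5.51%, and none lower, with a median of 0.61. Il6 had 105 CPM and 209 CPM (0.99, 0.91 to 1.07), Ptgs2, the inducible cyclooxygenase, 119.8 CPM and 351 CPM (1.55, 1.48 to 1.62), and Tnfaip3, which feeds back on NF-kB, 63.1 CPM and 136 CPM (1.11, 1.01 to 1.21). Il33 (-0.23) and Vcam1 (0.33) were within 1.5-fold. The fibroblast gate of KO AngII thus had lower levels of interferon-stimulated genes and higher levels of these NF-kB-linked transcripts. Whether the same cells carried both differences was not tested. In saline fibroblasts 4 of 12 cytokine and feedback genes were higher in KO (11.0% of all genes), with a median of 0.35. Cxcl14 had the highest ratio of the named genes (6.09 CPM and 55.6 CPM, 3.19, 2.91 to 3.49), though 10 cells held 59.6% of its WT AngII UMIs.

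**Figure D5:**
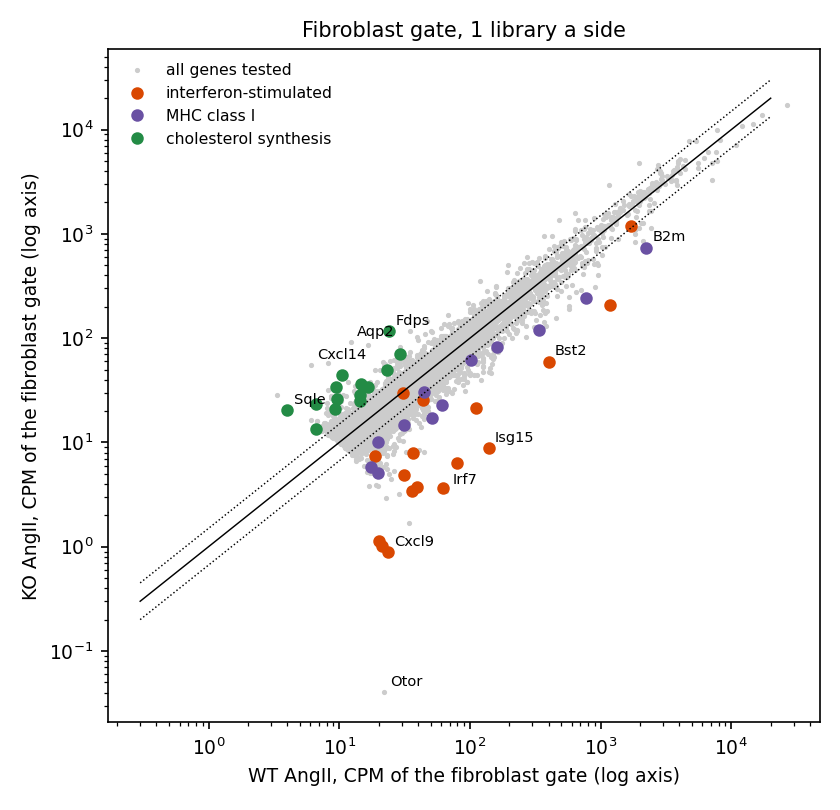
CPM of each compared gene in the fibroblast gate of WT AngII (x axis, log scale) and KO AngII (y axis, log scale), 1 library a side; the solid line marks equal levels, dotted lines mark 1.5-fold, and coloured points are members of 3 gene lists. Interferon-stimulated and MHC class I genes lie below the line (Isg15 at 139 and 8.85 CPM) and cholesterol synthesis genes above it (Fdps at 24.1 and 116 CPM).

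Complement genes, which fibroblasts of the vessel wall secrete, were lower in KO AngII: all 8 compared members were at least 1.5-fold lower, against 8.60% of all genes, with a median of -0.86. C4b had 125 CPM in WT AngII and 46.9 CPM in KO AngII (-1.42, -1.52 to -1.31), and C3 had 168 CPM and 101 CPM (-0.74, -0.81 to -0.66). The count was 3 of 8, with a median of -0.50, when gates were set on thinned cells. Of 6 compared acute phase genes 4 were lower (8.60% of all genes), among them Saa3 (142 CPM and 52.3 CPM, -1.44) and Lcn2 (19.2 CPM and 4.99 CPM, -1.94), while Hp was higher (28 CPM and 43.7 CPM, 0.64). In WT AngII 10 cells held 92.9% of the Saa3 UMIs, 67.6% of those of Lcn2 and 61.7% of those of Hp.

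Extracellular matrix genes of fibroblasts divided by kind. Collagens were within 1.5-fold for 12 of 16 compared members, with a median of 0.00: Col1a1 had 8169 CPM and 7989 CPM (-0.03) and Col3a1 14757 CPM and 11307 CPM (-0.38), while Col4a1 (0.76), Col6a3 (0.75) and Col11a1 (0.71) were higher and Col14a1 (-0.65) was lower. Elastic fibre genes were lower for 6 of 14 members, with a median of -0.46. Over all genes of the gate 5.51% were higher and 8.60% lower. Fbln5, which tethers elastin to cells, had 952 CPM and 407 CPM (-1.23, -1.26 to -1.19), Mfap4 had 2428 CPM and 1150.2 CPM (-1.08, -1.10 to -1.06), and elastin itself, Eln, had 7126 CPM and 4745 CPM (-0.59, -0.60 to -0.58). The elastic fibre count was 3 when gates were set on thinned cells.

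Of 21 matricellular and activation genes 9 were higher in KO AngII (5.51% of all genes) and 3 lower (8.60%), with a median of 0.11. Tnc, a glycoprotein of wounded tissue, had 46.9 CPM and 147 CPM (1.65, 1.54 to 1.76), Timp1, an inhibitor of matrix metalloproteinases, 1151 CPM and 2954 CPM (1.36, 1.34 to 1.38), and Thbs1 423 CPM and 958 CPM (1.18, 1.14 to 1.22). Spp1 was lower here as in phagocytes (344 CPM and 166 CPM, -1.05), and so were Comp (-0.94) and Postn (-0.61). For Spp1, 10 fibroblast-gate cells held 70.9% of the WT AngII UMIs. Mmp2, the gelatinase of resting fibroblasts, had 650.5 CPM and 276 CPM (-1.24, -1.28 to -1.19).

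Secreted regulators of growth factor signalling were lower for 6 of 10 compared members, against 8.60% of all genes, with a median of -0.75 and none higher. Igfbp3, an IGF carrier, had 23 CPM and 2.96 CPM (-2.96, -3.34 to -2.60), and Sfrp2, a Wnt antagonist, 2113 CPM and 861 CPM (-1.29, -1.32 to -1.27). Sfrp4 (-0.53) and Igf1 (0.10) were not apart. Cell cycle genes were higher for 8 of 15 members (5.51% of all genes), with a median of 0.60, and cells with at least 5 cell cycle UMIs after thinning made up 4.83% of WT AngII and 11.0% of KO AngII fibroblasts. The fibroblast markers, with Dcn and Lum of the gate among them, summed to 22335 CPM in WT AngII and 15954 CPM in KO AngII and smooth muscle markers to 1305 CPM and 2294 CPM, and the median depth was 9150 and 11778 UMIs per cell. Their part in these ratios was not tested. A changed mix of fibroblast states and changed levels within a state cannot be told apart by these gates.

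Aqp2 and Mest were higher in KO fibroblasts with either treatment. Aqp2, a water channel known from the kidney, had 12.3 CPM in WT AngII and 92 CPM in KO AngII (2.90, 2.70 to 3.11), and 2.67 CPM and 21 CPM in saline (2.97). The 10 cells with most Aqp2 UMIs held 40% of them in WT AngII and 32.7% in KO AngII. Mest, an imprinted gene, had 8.21 CPM in WT AngII and 57.7 CPM in KO AngII (2.81, 2.57 to 3.07), and 3.4 CPM and 8.48 CPM in saline (1.32, 0.27 to 2.41). Its UMIs were also concentrated, with 47.6% of them in 10 cells in WT AngII and 41.3% in KO AngII. The saline values rest on few UMIs in WT and KO, 11 and 52 for Aqp2 and 14 and 21 for Mest. The surface protein gene Cd24a was higher in KO with AngII (3.35 CPM and 28.6 CPM, 3.10) but not in saline, with 8.75 CPM in WT and 7.68 CPM in KO (-0.19, -1.07 to 0.65).

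Smooth muscle cells kept similar levels of their contractile genes. Of 16 members 14 were within 1.5-fold and 2 were higher (2.46% of all genes), with a median of -0.06. The actin Acta2 was at 0.08, Tagln at 0.12, Cnn1 at 0.20 and Lmod1 at -0.43. Myh11, at -0.20, had defined the gate. Des, the intermediate filament desmin, had 77.9 CPM in WT AngII and 196 CPM in KO AngII (1.33, 1.28 to 1.38) and Actg2, enteric smooth muscle actin, 252 CPM and 392 CPM (0.64, 0.61 to 0.67). All 12 collagens compared were within 1.5-fold, with a median of -0.12, and all 14 genes of the unfolded protein response likewise, with a median of -0.05.

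Heat shock chaperones were higher in KO AngII smooth muscle without exception: 11 of 11 were at least 1.5-fold higher, against 2.46% of all genes, with a median of 0.93. Hspb1, a small heat shock protein of muscle, had 1216 CPM and 3289.9 CPM (1.44, 1.42 to 1.45), Dnajb1 68 CPM and 162 CPM (1.25, 1.20 to 1.31), and Hspa1b 55.4 CPM and 129.5 CPM (1.23, 1.17 to 1.28). Hspa1a and Hspa1b are near-identical genes between which reads may have been split. In saline Hspb1 went the other way, with 2149 CPM in WT and 1357 CPM in KO. Only Hspd1 (0.93) of the 11 was apart in fibroblasts, and 4 were higher in phagocytes (2 of 10 compared without cells in 2 gates). Immediate early genes were higher for 5 of 17 members in the SMC gate (2.46% of all genes), with a median of 0.45, Ier3 at 1.06 and Junb at 0.83. In saline 9 of 17 were higher in KO in that gate (3.43% of all genes), with a median of 0.68. These genes respond to tissue digestion as well as to stimuli, and the part of handling was not tested.

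Of 7 compared cytokine and NF-kB feedback genes 3 were also higher in the SMC gate, against 2.46% of all genes. These were Tnfaip3 (12.1 CPM and 29.3 CPM, 1.27), Nfkbia (227 CPM and 514 CPM, 1.18) and Ptgs2 (71.1 CPM and 136 CPM, 0.94). ATF4 stress genes were higher for 5 of 9 members (2.46% of all genes), with a median of 0.62 and Psat1, a serine synthesis enzyme, at 0.97. Cell cycle genes were higher for 8 of 10 (2.46% of all genes), with a median of 1.20: Ube2c had 11.9 CPM and 40.7 CPM (1.78, 1.66 to 1.90) and Birc5 6.54 CPM and 22.6 CPM (1.79, 1.63 to 1.95). These came from few cells. The 10 cells with most Ube2c UMIs held 38.5% of them in WT AngII, and cells with at least 5 cell cycle UMIs after thinning were 1.49% of the gate in WT AngII and 3.33% in KO AngII. With gates set on thinned cells only 3 members were abundant enough and none was 1.5-fold higher.

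Single genes of the SMC gate with large ratios belonged to several functions. Rgs5, a regulator of G protein signalling typical of pericytes, had 293 CPM in WT AngII and 959 CPM in KO AngII (1.71, 1.69 to 1.73), and 198 CPM and 393 CPM in saline. It was detected in 34.1% (32.9 to 35.3) and 47.8% (46.5 to 49.1) of thinned cells. The 5 pericyte markers, Rgs5 among them, summed to 615 CPM and 1256 CPM. That rise was Rgs5 itself, and the other pericyte markers together did not rise. Fbln7, a matrix adhesion protein, had 4.17 CPM and 16.3 CPM (1.97, 1.77 to 2.17).

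Among lower genes of the SMC gate, Igfbp2 had 597 CPM and 211 CPM (-1.50, -1.53 to -1.47), Sost, the Wnt inhibitor sclerostin, 1499 CPM and 663 CPM (-1.18, -1.19 to -1.16), and Mir143hg, the host transcript of the miR-143 and miR-145 cluster, 85.3 CPM and 22.7 CPM (-1.91, -1.99 to -1.82). Igfbp2 was 39.3 CPM in WT saline and 71.9 CPM in KO saline, so that both AngII libraries stood higher but KO AngII by less. Sost was 1084 CPM and 1515 CPM in saline, and only in the AngII pair was KO the lower. Mir143hg was lower in KO saline too (186 CPM and 84.9 CPM). Ide, the insulin-degrading enzyme, was lower with both treatments (54.3 CPM and 23.6 CPM with AngII, 51 CPM and 24.2 CPM in saline), and in fibroblasts with AngII (-1.11).

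Angiotensin signalling genes were apart in both directions in the SMC gate. Nox4, an NADPH oxidase, had 367 CPM and 214 CPM (-0.77, -0.81 to -0.74), and Ace, the converting enzyme that makes angiotensin II, 94.4 CPM and 55.6 CPM (-0.76, -0.83 to -0.70). Both were also lower in KO AngII fibroblasts, at -1.25 and -1.09. Rgs2, which limits signalling from the angiotensin receptor, was higher (17 CPM and 29.4 CPM, 0.79). Of 13 TGF-beta genes compared in the SMC gate, 10 were within 1.5-fold, with a median of -0.05. Of the rest, 1 was higher (2.46% of all genes) and 2 were lower (1.47%).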

How the data were processed

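Single cells of digested thoracic aorta, freed of fat and sorted as viable with DAPI per the labels' protocols, were captured with a Chromium 3′ v3 kit, and 3 mice were pooled per library. The deposited values are counts of UMIs per gene and cell made by the authors with Cell Ranger and build mm10, per the submitters' processing notes. The files hold 17524 genes and 38316 cells. No cell had more than 4998 genes or a mitochondrial share above 24.8%; the sources used here do not state a filter behind that. Members, gene lists, gates and tests were chosen with earlier results of these data known.

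Counts were used as deposited, with no further cell filter. UMIs were summed per library and gate and divided by the gate's total (CPM). Ratios carry 95% exact conditional counting intervals, CPM exact Poisson intervals and shares exact binomial (Clopper-Pearson) intervals; all cover counting error only, since cells of 1 library are not replicates. A gene was compared where its mean CPM over both AngII libraries was at least 10 and at least 0.1 of its highest gate mean. A gene at 0 in 1 library takes a floor of 3 counts. Saline ratios needed at least 20 UMIs over both saline libraries. Shares of cells with a UMI were taken after thinning each cell to 3000 UMIs, and 0 AngII cells were shallower. Genes were picked by rule: Tmem173, then per gate the 8 higher and 8 lower genes whose interval ended farthest from 0. Mitochondrial, ribosomal, sex-linked and unnamed genes were left out. Up to 6 members with the largest ratios of each list described were added, plus examples within 1.5-fold. Not all ranked genes are described: Cdc20, Cdca3, Ccna2, Smim5 and Kcnc4 of the SMC gate are not, nor are Ctla2a, Hspb1, Cd209d and Fam26f of the phagocyte gate. Further list members in the gate described, such as Bst2, Ifi27l2a and Cxcl10 in fibroblasts, Ifih1 and Ifnb1, were chosen after their values were seen.

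Alternatives were TMM factors (edgeR 4.0.16), median-of-ratios factors (DESeq2 1.42.0), other CPM limits, a cell filter, thinned cells, means of per-cell CPM and other gates; leaving out the cells in 2 gates was added after seeing the data. Scripts ran in Python 3.11.15 (numpy 2.4.6, scipy 1.17.1, pandas 2.3.3, matplotlib 3.10.9) and R 4.3.3 and were tested on simulated counts. Promoter sequences are from RefSeq. Some items are not reported here.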

Additional observations from a re-analysis of the deposited data

Results flagged for a closer look

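These results went one way with AngII and the other way in saline; with 1 library a group the difference between the treatments was not tested. The median log2 ratio of KO over WT of the MHC class II genes in the phagocyte gate was -1.04 with AngII and 1.45 in saline. Hspb1 in the SMC gate was at 1.44 with AngII and -0.66 in saline. In the same gate Igfbp2 was at -1.50 with AngII and 0.87 in saline, and Sphkap, which encodes an anchoring protein for protein kinase A, at -1.37 and 0.80. AW112010 in the phagocyte gate was at -3.71 with AngII and 1.08 in saline. The phagocyte gate of KO saline held 83 cells.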

How the results depend on the processing

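No paired analysis was possible because each group has 1 library. Of 314 values recomputed under the alternatives, 267 were labelled the same and 47 moved. The same meant a count within 1.5-fold of the main count or, for a share of cells, a value inside the main interval. Only list medians could be labelled reversed, and 0 were. The label did not follow which direction held more genes: over all cells 229 were higher and 242 lower in the main setting, but 247 and 227 with TMM factors. TMM and median-of-ratios scaling moved none of 27 values each and shifted the log2 ratios of a gate by at most 0.03, and leaving out the cells in 2 gates moved none of 25. The median of the interferon-stimulated genes lay between -2.80 and -2.42 in fibroblasts and between -1.35 and -1.06 in phagocytes over all alternatives.

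The CPM limit set many counts. With a mean of at least 30 CPM, genes higher and lower in KO AngII numbered 116 and 110 over all cells, 101 and 51 in the SMC gate, 224 and 279 in fibroblasts and 84 and 138 in phagocytes. With at least 5 CPM the lower genes numbered 397 over all cells, 166 in the SMC gate and 966 in fibroblasts, and phagocytes had 340 higher and 525 lower. Cells thinned to 3000 UMIs gave 495 higher and 494 lower genes in phagocytes, and gates set on thinned cells gave 377 lower genes in fibroblasts.

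With at least 30 CPM, list members lower in KO AngII numbered 7 of 9 interferon-stimulated genes in fibroblasts and 9 of 11 in phagocytes, 1 of 2 and 4 of 5 interferon transcription factors, 1 of 1 GTPase in phagocytes (no fibroblast member was left to compare) and 7 of 8 MHC class I genes in fibroblasts. Cholesterol synthesis genes higher at that limit numbered 8 of 9 in the SMC gate, 3 of 3 in fibroblasts and 3 of 4 in phagocytes, and cell cycle genes 5 of 7 in fibroblasts. With at least 5 CPM 8 of 8 GTPases were lower in fibroblasts. Cell cycle genes of the SMC gate varied most: 13 of 15 were higher with at least 5 CPM, 1 of 3 with at least 30, 5 of 7 without cells in 2 gates and the top 5% of cells by UMIs, 2 of 4 with per-cell means, thinned cells or stricter gates, and 0 of 3 with gates on thinned cells. In fibroblasts gates on thinned cells left 3 of 8 complement and 3 of 14 elastic fibre genes lower; the cause was not tested.

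Shares of cells in WT AngII and KO AngII moved with the gate: 47.9% and 36.7% in the SMC gate and 14.5% and 13.6% in the fibroblast gate with stricter limits, and 47.3% and 43% and 18.5% and 13.7% on thinned cells. With cells in 2 gates counted in none, the WT AngII SMC share was 68.5% and the phagocyte shares were 7.30% and 5.63%.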

Other observations

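Clock genes, whose transcripts cycle over the day, were apart between the AngII libraries in fibroblasts. Of 13 compared there, 5 were at least 1.5-fold lower in KO AngII (8.60% of all genes) and 1 higher (5.51%): Per3 had 16.4 CPM in WT AngII and 5.19 CPM in KO AngII (-1.66), Tef 21.5 CPM and 10.9 CPM (-0.98), Dbp 30.8 CPM and 16.3 CPM (-0.92), and Nr1d1 28.3 CPM and 45.5 CPM (0.69). In the SMC gate 3 of 13 were higher (2.46% of all genes), among them Per1 (17.5 CPM and 31.7 CPM, 0.86), and none was lower. In saline Dbp (1.80) and Nr1d1 (3.92) were higher in KO fibroblasts. The sources used here do not state the hour at which the tissue was taken.

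Nuclear-encoded genes of the respiratory chain stood close between the AngII libraries: all 18 were within 1.5-fold in the SMC gate (median 0.15) and in the phagocyte gate (median 0.12), and 17 of 18 in fibroblasts (median 0.19). Cell cycle genes in phagocytes were also within 1.5-fold for all 18 members (median -0.03), whereas 12 of 17 were higher in KO in saline phagocytes, against 11.3% of all genes, where the KO library held only 83 cells.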
